A study of Mus musculus with 12 samples.

Results

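The genes described here encode proteins of the mitochondrial ribosome, named Mrpl for the large subunit and Mrps for the small subunit. The symbol does not always give the place, since Mrps18a lies in the large subunit. The genes were chosen by symbol alone: every probe whose gene name in the array's annotation starts with Mrpl or Mrps followed by a digit. The array held 132 such probes of 45281, for 76 genes. Of these, 115 probes of 72 genes had a detection p under 0.05, that is a signal above the negative-control beads, on at least 1 of the 11 arrays used in the tests, and 17 probes did not. Mrpl19, Mrpl32, Mrpl45 and Mrps14 had no tested probe. The tested probes covered 45 Mrpl genes (69 probes) and 27 Mrps genes (46 probes).

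Illumina MouseWG-6 v2.0 bead arrays were hybridized with RNA from pachytene and diplotene spermatocytes and from round spermatids, sorted by Hoechst staining from the testes of adult mice. The mutants were Baz1a-/- and the controls were Baz1a+/-, so the controls also carried 1 deleted copy of Baz1a, the gene of a subunit of the ISWI chromatin remodelers ACF and CHRAC. All mice were on a mixed C57BL/6J and FVB/NJ background and carried a deletion derived from 1 targeted stem cell clone. There were 3 control and 3 mutant mice, each giving 1 array per cell type, and a replicate number denotes the same mouse in both cell types of a genotype. The spermatocyte array of mutant 1 is marked as censored in its label, which gives no reason. The authors left this array out of their tests because its purity was not known and its expression values pointed to spermatid contamination. Here it was normalized with the others but entered no test, so mutant spermatocytes had 2 arrays and each other group had 3. Median raw signal per array was 101.4 to 118.1, and 36.22% to 41.35% of all probes were detected on an array. No probe on the array is named Baz1a, so loss of the targeted transcript could not be followed.

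Mitochondrial ribosomes translate the few proteins that are encoded by mitochondrial DNA, all of them core subunits of the respiratory chain and of ATP synthase. Their RNA comes from mitochondrial DNA, whereas all of their proteins are encoded in the nucleus and imported. One set of these proteins has counterparts in bacterial ribosomes, and another set was added in mitochondria. In the testis, germ cells change their energy metabolism as they go from meiosis to the spermatid stage, when mitochondria are rearranged before they are packed around the sperm tail.

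Promoters of 6 members whose values follow are printed first, because members that change together between cell types can be compared in their start regions. Mrpl3, Mrpl9, Mrpl33 and Mrpl53 fell in spermatids, Mrps12 rose, and Mrps17 was the member called between genotypes. Each line is the 120 bases before the transcription start in RefSeq (GRCm38.p6), from 5′ to 3′ on the strand of the gene. Capitals mark the letters GCATGCGC (the core that NRF1 binds) or CCGGAAG (the core that GABPA binds), on either strand.
Mrpl3 (chr9:105053148-105053267, + strand): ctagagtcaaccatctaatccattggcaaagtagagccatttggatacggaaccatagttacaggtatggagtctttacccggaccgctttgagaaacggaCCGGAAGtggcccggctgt
Mrpl9 (chr3:94443216-94443335, + strand): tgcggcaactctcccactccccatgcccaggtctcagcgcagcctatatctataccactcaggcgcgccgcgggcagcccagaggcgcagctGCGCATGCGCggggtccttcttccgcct
Mrpl33 (chr5:31613831-31613950, + strand): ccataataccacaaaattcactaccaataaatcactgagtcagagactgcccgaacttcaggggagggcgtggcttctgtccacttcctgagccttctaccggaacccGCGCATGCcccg
Mrpl53 (chr6:83108988-83109107, + strand): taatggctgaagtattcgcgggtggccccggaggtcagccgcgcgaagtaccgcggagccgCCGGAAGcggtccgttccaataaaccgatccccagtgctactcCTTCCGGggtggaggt
Mrps12 (chr7:28741822-28741941, - strand): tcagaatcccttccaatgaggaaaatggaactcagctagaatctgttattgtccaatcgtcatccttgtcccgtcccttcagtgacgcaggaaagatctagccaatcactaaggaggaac
Mrps17 (chr5:129715377-129715496, + strand): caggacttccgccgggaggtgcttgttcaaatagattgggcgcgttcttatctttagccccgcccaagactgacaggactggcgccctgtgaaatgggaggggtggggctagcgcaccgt

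The GABPA letters stood 2 times before the start of Mrpl53 and 1 time before that of Mrpl3. In Mrpl9 the NRF1 letters overlapped themselves on opposite strands within GCGCATGCGC, and in Mrpl33 they lay a few bases from the start. The printed stretches of Mrps12 and Mrps17 held none of these letters, although the full window of Mrps12 held 1 GABPA and 1 YY1 match. The 6 promoters were picked by hand with values and matches known, and Mrpl9 and Mrpl33 are the only 2 of 38 windows of members called lower that held the NRF1 letters, so the printed set does not represent the members. Over the whole window from 250 bases before to 50 bases after the start, RefSeq held 70 windows for 64 of the tested genes. CCGGAAG was present in 37.1% of them and in 11.6% of the 21262 windows of all protein-coding genes. AAGATGGC, the core that YY1 binds, was present in 15.7% against 3.05%, the NRF1 letters in 10% against 3.51%, and TGACGTCA, the cyclic AMP response element, in 2.86% against 2.23%. The YY1 letters lay after the start in 8 of the 11 matches in member windows, and in 47.6% of the matches in all windows. GABPA letters were found in 39.5% of the windows of members with a probe that fell in control spermatids and in 34.4% of those of the other tested members. For the NRF1 letters the shares were 5.26% and 15.6%. These shares count windows and not genes. The members that fell had 38 windows for 32 genes, some with several starts, and the others had 32 windows for 32 genes. A match gives the letters only and is not a measured binding site. The windows of all protein-coding genes were not limited to genes detected on these arrays, as those of the members were. Whether the shares are particular to the members was not tested.

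Many members also had a neighbor that starts close by on the opposite strand. Of 67 members with a window, 21 (31.3%) had the start of another protein-coding gene within 500 bases in the divergent direction, against 7.53% of 17491 protein-coding genes. The latter include genes not expressed in these cells, and no set of expressed genes was counted beside them. The pairs included Mrps12 with Sars2, the mitochondrial seryl-tRNA synthetase, at 147 bases, Mrpl43 with Twnk, the helicase of mitochondrial DNA, at 116 bases, and Mrpl46 with Mrps11 at 42 bases. Mrpl27, the member with the largest fitted fall, starts 48 bases from Eme1, a subunit of a DNA structure-specific endonuclease.

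Between control spermatocytes and control spermatids, the members went down as a group with few exceptions. At a fold of at least 2 and a Benjamini-Hochberg adjusted p under 0.05 over all 28751 probes tested (limma), 49 of the 115 probes were lower in spermatids, 3 were higher and 63 were not called. Of all probes tested, 15.2% were called lower and 13% higher. The median log2 difference was -0.87 over the members and -0.05 over all probes. A negative difference was seen in 103 of the 115 members and in 54.4% of all probes. Every spermatid array lay below every spermatocyte array in 83 members, and the same was seen in 29.1% of all probes. These values are relative to the other probes of an array, and in sorted bulk RNA fewer cells of a type and less RNA per cell cannot be told apart.

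The fall was visible on single arrays. The median of the 115 members was 9.09, 9.21 and 8.83 (normalized log2 intensity) in control spermatocytes 1, 2 and 3, and 8.05, 8.02 and 7.99 in the spermatids of the same mice. In mutants 2 and 3 it was 9.19 and 8.77 in spermatocytes, and mutant spermatids gave 7.98, 8.11 and 8.19. The spermatocyte and spermatid arrays did not overlap in this median. The censored array, at 8.91, lay among the spermatocytes. The median SD of a member between arrays was 0.26 in control spermatocytes, 0.31 in mutant spermatocytes, 0.16 in control spermatids and 0.22 in mutant spermatids. Within a mouse, the median member differed by -0.90, -1.12 and -0.61 between the cell types of controls 1, 2 and 3, and by -1.24 and -0.61 in mutants 2 and 3, while the median over all probes stayed between -0.07 and -0.02 in these 5 mice. Between 79.1% and 87.8% of members were lower in the spermatids of these mice, against 51.5% to 55.4% of all probes.

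**Figure D1:**
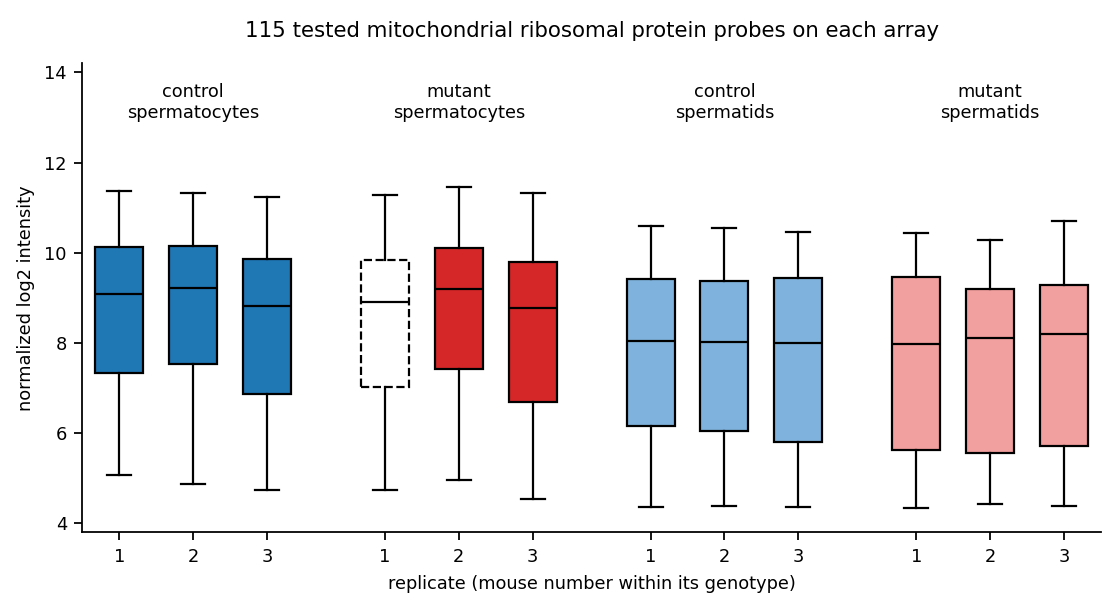
Normalized log2 intensity of the 115 tested probes on each of the 12 arrays, grouped by cell type and genotype (boxes, quartiles with the median as a line; whiskers, 5th to 95th percentile; the dashed white box is the censored array, which entered no test). The median lies at 8.77 or above on every spermatocyte array and at 8.19 or below on every spermatid array.

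On every spermatocyte array used 104 members were detected, and on every spermatid array 89. Among the 89 members detected on all 11 arrays, 39 (43.8%) were called lower in control spermatids with a median difference of -0.90, while 24.4% of the 10662 probes detected on all 11 arrays in the whole set were called lower.

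Members of both subunits fell. By symbol, 29 of 69 Mrpl probes were lower and 1 was higher, with a median of -0.90. The count was 20 lower and 2 higher of 46 Mrps probes, with a median of -0.84. The classes that follow place each protein by its subunit and not by its symbol, so their probe totals differ from these. Proteins with a bacterial counterpart gave 19 lower and 1 higher of 40 probes in the large subunit, and 11 lower and 2 higher of 27 in the small subunit. Proteins that exist only in mitochondrial ribosomes gave 10 lower of 31 in the large subunit and 9 lower of 17 in the small subunit, with none higher. No difference between these classes was tested.

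**Figure D2:**
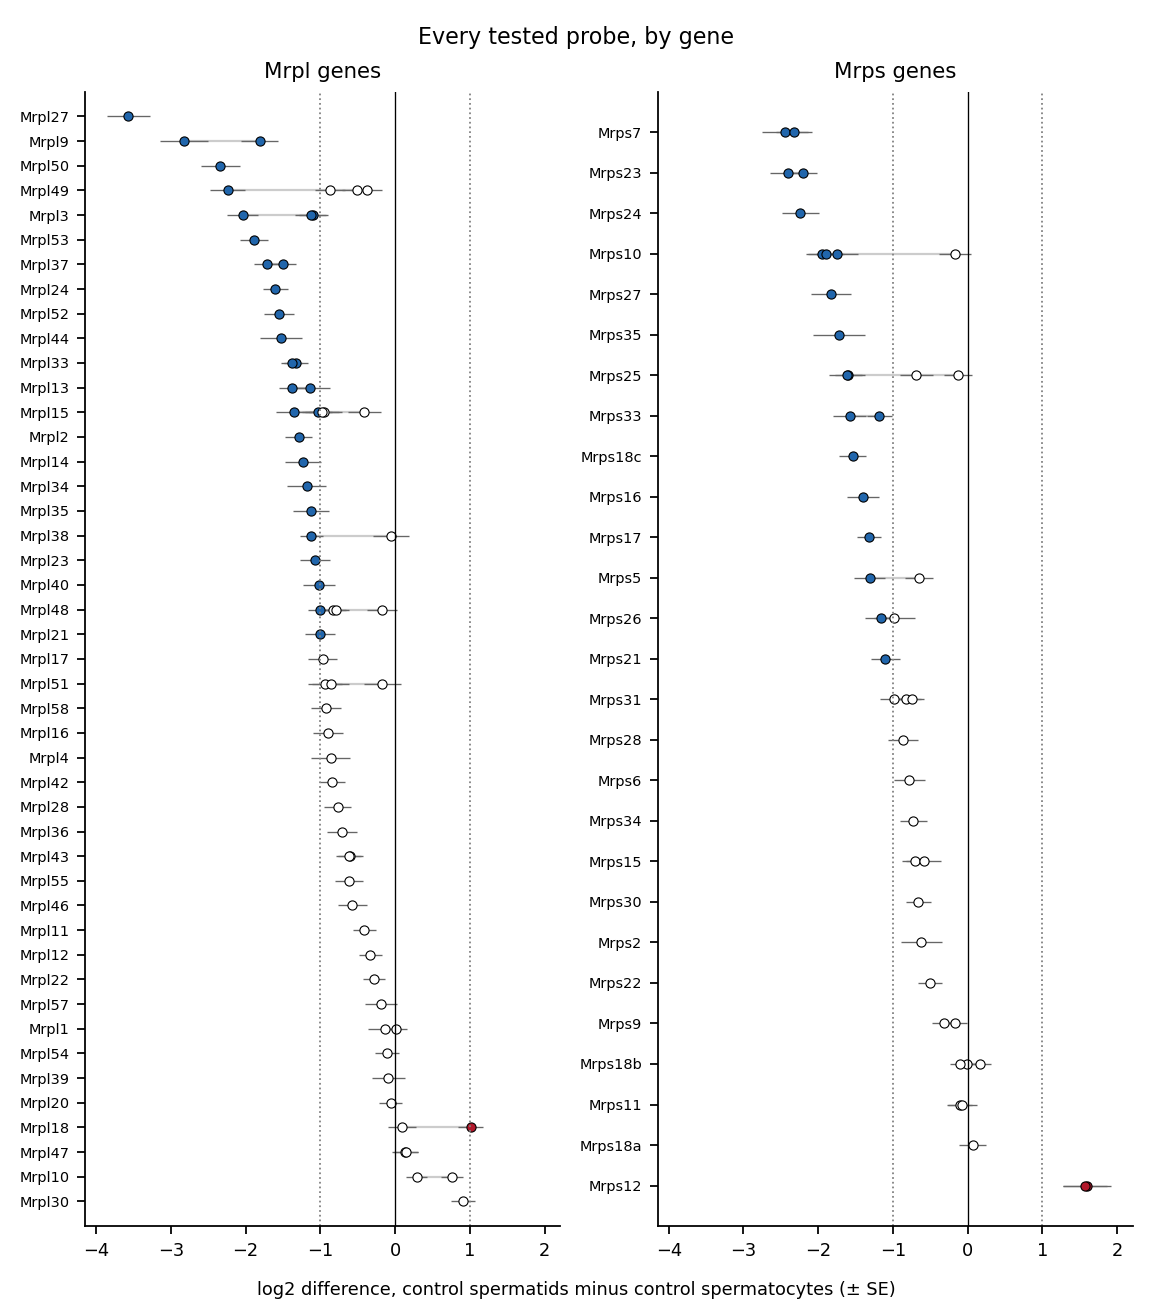
Log2 difference between control spermatids and control spermatocytes for every tested probe (points, ± SE), with the probes of a gene on 1 line and genes ordered by their lowest probe. Blue points were called lower, red points higher and white points were not called, and dotted lines mark a fold of 2. Most genes lie left of 0, from Mrpl27 at -3.57 to Mrps12 at 1.60.

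Among large subunit proteins the change was largest for Mrpl27, whose bacterial counterpart reaches the site of peptide bond formation. Its log2 values were 8.54, 9.01 and 7.78 in control spermatocytes, and 5.54, 4.84 and 4.63 in control spermatids, where it was detected on 1 of 3 arrays. This is a fitted decrease of 11.9-fold (log2 difference -3.57, SE 0.29, adjusted p 3.21e-07), whose size is uncertain because 2 of the 3 spermatid values were not above background, and the groups did not overlap. Mutants gave 8.78 and 8.16 in spermatocytes, and 4.78, 5.30 and 4.48 in spermatids.

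Mrpl9, the counterpart of a bacterial protein that extends from the base of the L1 stalk, stood at 8.13, 8.53 and 8.0 in control spermatocytes and at 6.14, 4.51 and 5.64 in control spermatids (log2 difference -2.82, SE 0.32, adjusted p 6.25e-06). Its second probe fell by 1.81. The first probe was detected on 2 of the 3 control spermatid arrays, so the size of its fall is uncertain. Control spermatid 2 was the lowest of the 3 arrays on the first probe, and no spermatid array reached a spermatocyte array. Mrpl3, which in bacteria lies near the site of peptide bond formation, was 7.71, 8.05 and 7.75 in control spermatocytes and 5.84, 5.73 and 5.77 in spermatids. All 3 of its probes were lower, at -2.04, -1.10 and -1.12, although the probe at -1.10 was not detected on any control spermatid array and gives only a bound of at least 1.44-fold.

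Several proteins that mitochondria added to the large subunit fell by similar amounts. Mrpl53 was 9.21, 9.38 and 9.63 in control spermatocytes and 7.72, 7.48 and 7.29 in spermatids (log2 difference -1.89, SE 0.19, adjusted p 1.62e-06). Mrpl50 differed by -2.34 (SE 0.26), but it was detected on 2 of 3 control spermatid arrays, so the size of its fall is uncertain. The brightest probe of Mrpl49 differed by -2.24 (SE 0.23). For each of these 3 genes the lowest spermatocyte array was above the highest spermatid array. Mrpl33, a counterpart of a small bacterial protein, fell by 1.38 and 1.32 on its 2 probes.

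In the small subunit, Mrps7, whose bacterial counterpart organizes the head, was 9.02, 9.43 and 8.74 in control spermatocytes and 6.95, 6.65 and 6.42 in control spermatids (log2 difference -2.44, SE 0.31, adjusted p 1.78e-05). Its second probe fell by 2.32, a size that is uncertain because it was detected on 2 of 3 control spermatid arrays. Mrps24, the counterpart of bacterial S3, was 9.03, 9.03 and 8.55 against 7.02, 6.59 and 6.55 (log2 difference -2.24, SE 0.25). In Mrps10, another head protein, 3 of 4 probes fell, by 1.95, 1.89 and 1.75. The values of the 2 cell types did not overlap in these genes, apart from the fourth Mrps10 probe, a dim one. Mrps23, which has no bacterial counterpart, fell on both probes, by 2.41 and 2.20.

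Only Mrps12 and Mrpl18 had a probe called higher in control spermatids. Mrps12 encodes the counterpart of bacterial S12, a protein of the decoding site. On the first of its probes it was 8.37, 9.22 and 8.41 in control spermatocytes and 9.53, 10.45 and 10.47 in control spermatids (log2 difference 1.60, SE 0.32, adjusted p 0.000842). The second probe gave 8.88, 9.13 and 8.61 against 9.78, 11.02 and 10.43 (log2 difference 1.57, SE 0.29, adjusted p 0.000475). All spermatid arrays were above all spermatocyte arrays on both probes, with control spermatid 1 the lowest of its group. Sars2, its divergent neighbor, also rose, by 1.34 (SE 0.25, adjusted p 0.000481).

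Over all divergent neighbors, which include Sars2 and the members Mrps11 and Mrpl46, 8 of 32 tested probes of 19 genes (25%) were called lower and 2 (6.25%) higher, against 15.2% and 13% of all probes. The median log2 difference was -0.58. All probes called lower came from Helq, Twnk, Zfp661 and Psma2, several of them from the same gene, so these shares do not count genes. Helq, a DNA helicase gene beside Mrps18c, was lower on 3 of its 4 probes (-2.06, -1.76 and -1.25), as was Mrps18c, whereas Klc4, a kinesin light chain gene beside Mrpl2, rose by 1.09 while Mrpl2 fell by 1.29. These neighbors were picked after their values were seen.

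Mrpl18 encodes the counterpart of the bacterial protein that binds 5S rRNA. Its brighter probe was 7.57, 7.64 and 7.28 in control spermatocytes and 8.69, 8.58 and 8.42 in spermatids (log2 difference 1.01, SE 0.17, adjusted p 0.000164). The dim second probe, detected on 4 of the 11 arrays, differed by 0.09 (SE 0.19). Mrpl18 lies at the fold threshold. It lost its call without control spermatid 1 (0.97) or control spermatocyte 3 (0.93), after median scaling (0.69), without background correction (0.75), with an offset of 50 (0.89), under both stricter detection filters (0.99 and 0.98) and when the fold of 2 itself was tested.

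Mrpl30, the counterpart of bacterial L30, came close with 8.81, 8.67 and 8.93 against 9.53, 9.93 and 9.66 (log2 difference 0.91, SE 0.16, adjusted p 0.000239). It was called in mutants, at 1.13 (SE 0.22, adjusted p 0.000998).

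Of the 3 counterparts of bacterial S18, Mrps18c was called and the other two were not. Mrps18c, in the small subunit, fell from 10.43, 10.58 and 10.02 in control spermatocytes to 9.18, 8.86 and 8.64 in spermatids (log2 difference -1.54, SE 0.18, adjusted p 7.01e-06). Mrps18b, also in the small subunit, gave -0.01, -0.10 and 0.16 on its 3 probes with SEs of 0.14 to 0.15. Its brightest probe was 10.34, 10.44 and 10.09 in spermatocytes and 10.59, 10.35 and 10.51 in spermatids, so the groups overlapped. Mrps18a, which is located in the large subunit of the mammalian mitochondrial ribosome, differed by 0.07 (SE 0.18).

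The proteins of the stalk that recruits translation factors did not pass the threshold either. Mrpl12, the stalk repeat protein, differed by -0.33 (SE 0.15) and Mrpl11, at the stalk base, by -0.41 (SE 0.15). Mrpl10, which anchors the stalk, was higher in spermatids, at 0.76 (SE 0.15, adjusted p 0.000758) and 0.29 (SE 0.14) on its 2 probes, both under a fold of 2.

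**Figure D3:**
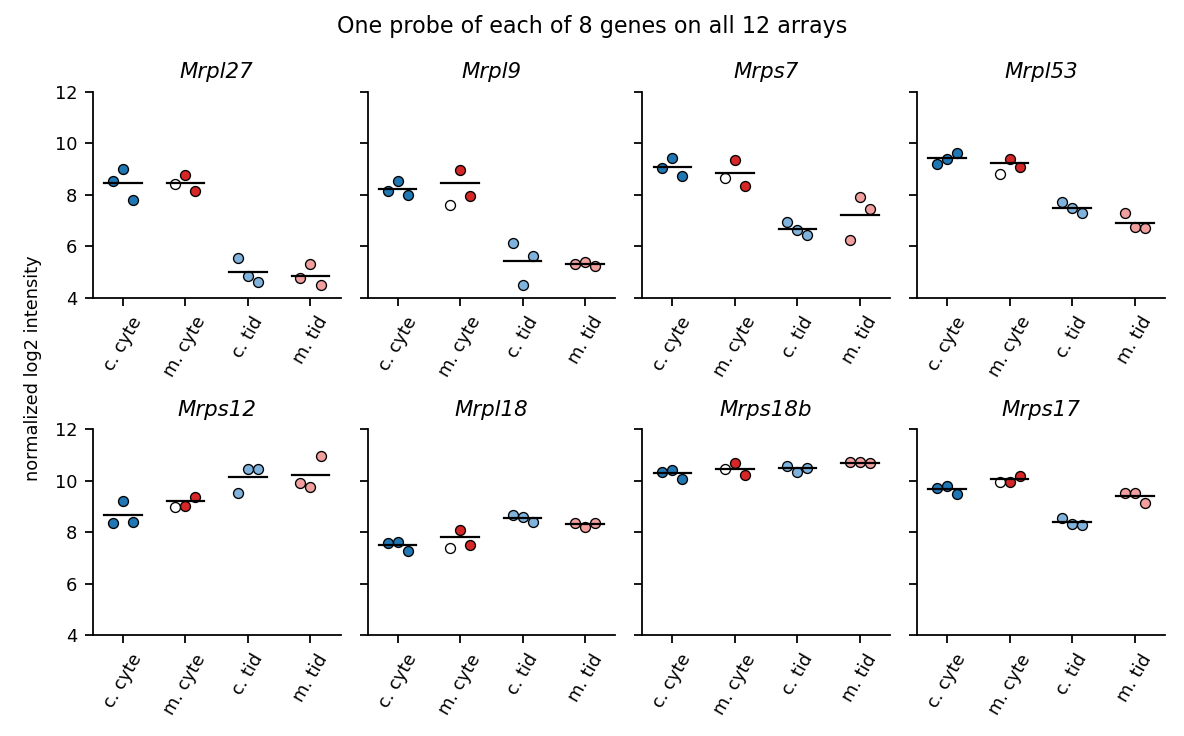
Normalized log2 intensity of 1 probe of 8 genes on all 12 arrays (points; bars, mean of the arrays in the tests; white point, the censored array; c. cyte and m. cyte, control and mutant spermatocytes; c. tid and m. tid, control and mutant spermatids). Mrpl27, Mrpl9, Mrps7 and Mrpl53 were called lower in spermatids of both genotypes, Mrps12 and Mrpl18 were called higher in controls but not in mutants on these probes, Mrps18b overlaps, and Mrps17 separates mutant from control spermatids.

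Probes of 1 gene did not always give the same result. Of 28 genes with 2 or more tested probes, 8 fell on every probe, 8 on some and 10 had no probe called. In the other 2 genes a probe was higher. In Mrpl49 the brightest probe fell by 2.24 and the other 3, near the detection limit, were not called. Of these, 2 were detected on no control spermatid array and give bounds of at least 1.29-fold and 1.16-fold, and the third differed by -0.38. In Mrpl38, which has no bacterial counterpart, the probe at a mean of 11.82 in control spermatocytes fell by 1.12 (SE 0.15), and the one at 5.20 differed by -0.05 (SE 0.24).

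Mrps25, also specific to mitochondria, gave -1.61 and -1.60 on probes that were detected on no control spermatid array, which are bounds of at least 2.2-fold and 2.16-fold, and -0.69 on a probe detected in both cell types. Its last probe was not detected on any control spermatid array either and gives no fold. Mrpl15 had 2 probes called lower, at -1.35 and -1.03, of 5 that differed by -0.41 to -1.35. By gene, 36 of the 72 had a probe lower in spermatids, 2 had a probe higher and 34 had none called. The transcript form or the pseudogene copies that each probe can bind were not examined here.

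In mutants the same comparison gave a similar count with 1 array fewer. Of 115 probes, 53 were lower in mutant spermatids than in mutant spermatocytes and 2 were higher, against 16.5% lower and 14.8% higher over all probes. The median was -0.93. Every mutant spermatid array lay below both mutant spermatocyte arrays in 81 members, against 31.7% of all probes. The genotypes share no array in these comparisons, and 39 probes were lower in both, which is 79.6% of those lower in controls and 73.6% of those lower in mutants. Over all probes these shares were 86.7% and 79.8%.

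The members named above gave these values in mutants: -3.63 (SE 0.42) for Mrpl27, -3.14 (SE 0.46) for Mrpl9, -1.53 (SE 0.45) for Mrps7 and -2.67 (SE 0.36) for Mrps24. Mrpl27 was detected on 1 of 3 mutant spermatid arrays, so the size of its fall is uncertain here too. Mrps7 rested on few arrays, since it was 9.36 and 8.33 in mutant spermatocytes and 6.24, 7.93 and 7.45 in mutant spermatids, and without mutant spermatocyte 2 it was no longer called (-1.02, adjusted p 0.109). Of the 2 Mrps12 probes, 1 was called higher (1.27, SE 0.42, adjusted p 0.0257) and the other was not (1.10, SE 0.46, adjusted p 0.0735). Mrpl18 differed by 0.51 (SE 0.24, adjusted p 0.116).

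The largest falls among other members were those of Mrpl44, which carries a ribonuclease III-like fold, at -2.15 (SE 0.40), Mrps16, a counterpart of bacterial S16, at -1.96 (SE 0.30), and Mrps27, a pentatricopeptide repeat protein, at -1.96 (SE 0.38). Mrps27 was not detected on any mutant spermatid array, so its change is a bound of at least 3.06-fold.

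By the mean of each list, markers of the 2 cell types separated them as labelled. The mean log2 value of 14 probes of round spermatid genes was 11.96 to 12.20 in control spermatids and 12.21 to 12.35 in mutant spermatids. In spermatocytes it was 7.34 to 9.15 in controls and 8.25 to 10.30 in the mutants used, so the level of these genes varied between the spermatocyte sorts. For 19 probes of spermatocyte genes the mean was 9.29 to 9.43 in both spermatocyte groups and 8.21 to 8.50 in the spermatid groups. Single probes of this list were mixed. In controls 8 were called lower in spermatids, 1 was called higher and 10 were not called. In mutants 10 were lower and 2 higher. The part of these levels in the members' differences was not tested.

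**Figure D4:**
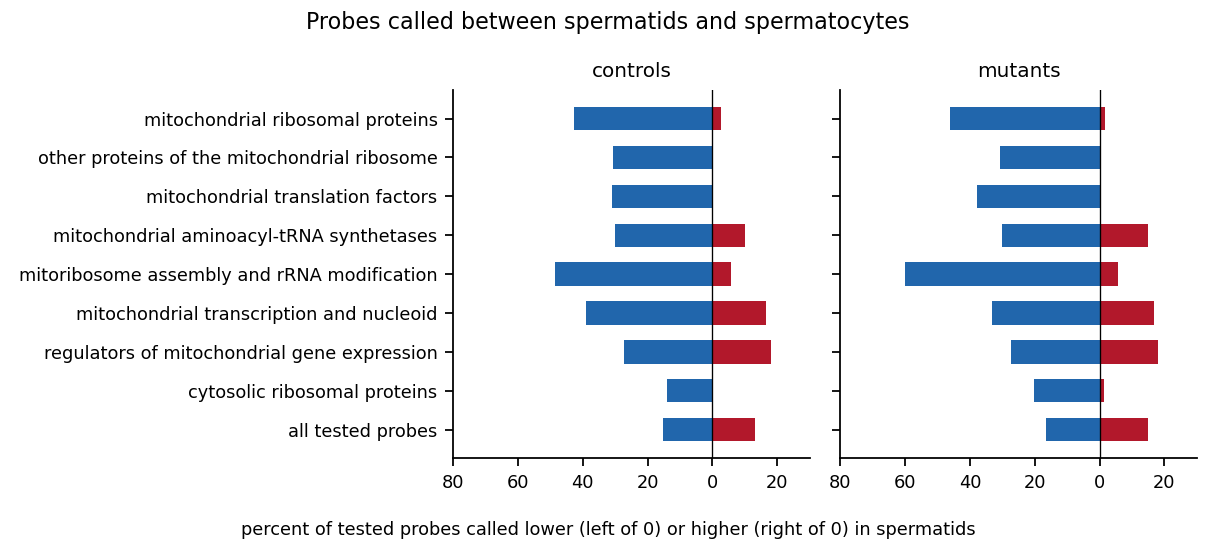
Percent of tested probes called lower (blue, left of 0) or higher (red, right of 0) in spermatids than in spermatocytes, for controls and mutants, for the mitochondrial ribosomal proteins, 7 related gene lists and all tested probes. The mitochondrial ribosomal proteins reach 42.6% lower in controls and 46.1% in mutants, and the assembly factors 48.6% and 60%, against 15.2% and 16.5% of all probes.

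Genes that act with the mitochondrial ribosome were counted in the same control comparison. Among 35 probes of factors that assemble the ribosome or modify its RNA, 17 were lower and 2 higher, with a median of -0.99. Ddx28, an RNA helicase of large subunit assembly, fell by 3.26 (SE 0.26), and Noa1, a GTPase needed for the small subunit, by 2.63 (SE 0.19). The 2 probes called higher were those of Nsun4 (2.14, SE 0.20) and Tfb1m (1.5, SE 0.25), both methyltransferases of the small subunit rRNA.

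Of 29 probes of translation factors 9 were lower and none higher, with a median of -0.77. They included Mtif2, an initiation factor, at -3.72 (SE 0.31), and Mtif3, another initiation factor, at -1.82 (SE 0.21). Aminoacyl-tRNA synthetases of mitochondria went both ways, with 6 lower and 2 higher of 20 probes. Rars2 and Vars2, for arginine and valine, each fell by 1.86, whereas Cars2, for cysteine, rose by 2.19 (SE 0.17) along with Sars2.

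Other proteins bound to the mitochondrial ribosome, a list that also holds the members Mrpl57 and Mrpl58, gave 4 lower of 13 probes, led by Oxa1l, the inner membrane insertase, at -1.35 (SE 0.20). In the list for mitochondrial transcription and the nucleoid 7 of 18 probes were lower and 3 higher. Tefm, the elongation factor, fell by 1.71 (SE 0.16) and Tfb2m, an initiation factor, by 1.68 (SE 0.26), while Tfam, which packages mitochondrial DNA, rose by 3.07 (SE 0.45) and 2.96 (SE 0.40) on its 2 probes. Which transcript forms of Tfam these probes bind was not examined, so a rise of the mitochondrial form was not shown. Mterf2 rose by 1.15 (SE 0.18).

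Of 11 probes of nuclear regulators of these genes, 3 were lower and 2 higher. Esrra and Pprc1, a nuclear receptor and a coactivator, both fell by 1.37, and Gabpb1, the partner of GABPA, rose by 1.43 (SE 0.19) and 1.23 (SE 0.19). The cytosolic ribosomal proteins, at 11 lower and none higher of 79 probes, had a median of -0.41. The share called lower was 13.9%, near the 15.2% of all probes. The probes called included Rpl10a at -3.64 (SE 0.36) and Rpl31 at -2.26 (SE 0.18). Only 60 of the 84 cytosolic genes were found on the array by symbol.

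In spermatids of mutants and controls, Mrps17 was the single member that differed past the threshold. Of 115 probes, 1 was called higher and none lower between mutant and control spermatids, against 4.03% called in either direction and 2.87% called higher over all probes. At an unadjusted p under 0.05 there were 18, against 19.5% of all probes. The median difference was -0.07 over the members and -0.03 over all probes. The genotypes did not overlap in 33 members, 24 lower and 9 higher in mutants, and in 23% of all probes.

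The member called was Mrps17, the counterpart of a bacterial protein that binds the small subunit rRNA early in assembly. This gene had only 1 tested probe, so no second probe stands beside the call. It was 8.56, 8.34 and 8.30 in control spermatids and 9.52, 9.54 and 9.15 in mutant spermatids, with no overlap (log2 difference 1.0, SE 0.17, adjusted p 0.00287). In spermatocytes it was 9.73, 9.81 and 9.49 in controls and 9.94 and 10.18 in mutants (log2 difference 0.36, SE 0.22, adjusted p 1). The 2 genotype differences were not shown to differ (0.64, SE 0.28, adjusted p 0.676). Between cell types it fell by 1.32 (SE 0.16) in controls and differed by -0.68 (SE 0.23, adjusted p 0.0308) in mutants. Its value lies at the fold threshold, and without mutant spermatid 1 or 2 or control spermatid 2 or 3 it was 0.97, 0.96, 0.95 and 0.93 and was not called. With the mouse as a block it was 1.0 (adjusted p 0.003) and also fell just under a fold of 2.

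Mrps11, the counterpart of a protein of the small subunit platform, had the next lowest adjusted p. The first probe was 10.01, 10 and 10.07 in control spermatids and 9.50, 9.06 and 8.93 in mutant spermatids (log2 difference -0.91, SE 0.17, adjusted p 0.00471), under a fold of 2. The second gave 9.99, 9.77 and 9.71 against 9.65, 8.82 and 8.97 (-0.71, SE 0.21, adjusted p 0.0599). All mutant arrays were below all control arrays on both probes. Mrpl46, its divergent neighbor, differed by -0.06 (adjusted p 0.936).

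At a fold of 1.5, which 7.46% of all probes passed, the 5 members passing in mutant spermatids were Mrps17 and, all lower, Mrps11, Mrps16 (-0.78), Mrps22 (-0.72) and 1 of 2 probes of Mrps23 (-0.80). Mrps22, a protein specific to mitochondria, was 9.68, 9.58 and 9.74 in controls and 8.81, 8.98 and 9.02 in mutants. The other Mrps23 probe differed by 0.00.

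Some markers of other testis cells also differed between the spermatid sorts. The mean log2 value of 12 probes of peritubular myoid and fibroblast genes was 4.97 to 5.16 in control spermatids and 5.65 to 5.80 in mutant spermatids, and 2 of the 12 were called higher. For 4 probes of Leydig cell genes the mean was 5.28 to 6.77 and 6.26 to 8.44, with 2 called higher. Macrophage, endothelial and Sertoli cell lists had 1 probe called higher each, of 8, 8 and 3. Over all probes 2.87% were called higher. Called or not, 4, 3 and 1 probes of these lists had a negative difference, as did 3 of the 12 myoid and fibroblast probes and none of the Leydig cell probes. Their part in the members' values was not tested.

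Among related genes, 2 of 35 probes of assembly factors, 1 of 29 of translation factors and 1 of 20 of synthetases were called between the spermatid genotypes, shares near the 4.03% of all probes. C1qbp, a matrix protein in the list of assembly factors, was lower in mutants (-2.24, SE 0.25, adjusted p 9.73e-05), as was Rpusd3, a pseudouridine synthase (-1.35, SE 0.27, adjusted p 0.00805). Tsfm, the elongation factor that recharges Tufm, was lower (-1.20, SE 0.20, adjusted p 0.00229), and Ears2, the glutamyl-tRNA synthetase, was higher at 1.03 (SE 0.20, adjusted p 0.00684). None of the cytosolic ribosomal protein probes was called.

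In spermatocytes no member was called between genotypes by limma, while 0.410% of all probes were, and 4 members had an unadjusted p under 0.05, against 5.46% of all probes. The median difference was -0.07, and it did not keep its sign: it was 0.18 without mutant spermatocyte 3, -0.29 without mutant spermatocyte 2 and -0.56 after median scaling, where the median of all probes was -0.16. Mrps11 had the lowest adjusted p, with 10.20, 10 and 10.15 in controls and 9.30 and 9.46 in mutants (-0.75, SE 0.22, adjusted p 0.321). The censored array gave 9.64 for Mrps11, also below the controls. Mrps25 followed at -0.73 (SE 0.25, adjusted p 0.513) and Mrpl48 at -0.64 (SE 0.23, adjusted p 0.612). The SE of a member was larger here than in spermatids for each of these genes. Mutant spermatocytes had only 2 arrays, and both had the lowest array weight in the fit, 0.6657.

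The difference of the genotype effects between the cell types was called for no member and for 0.153% of all probes, and 3 members had an unadjusted p under 0.05, against 7.01% of all probes. Its median over the members was -0.04, and this turned to 0.17 without mutant spermatocyte 2 and to 0.39 after median scaling, where the median of all probes was 0.17. Mrpl51, a protein specific to mitochondria, had the lowest adjusted p on 1 of its 3 probes (1.15, SE 0.44, adjusted p 0.543), followed by Mrps17 and by Mrps23 (-0.72, SE 0.33, adjusted p 0.704).

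**Figure D5:**
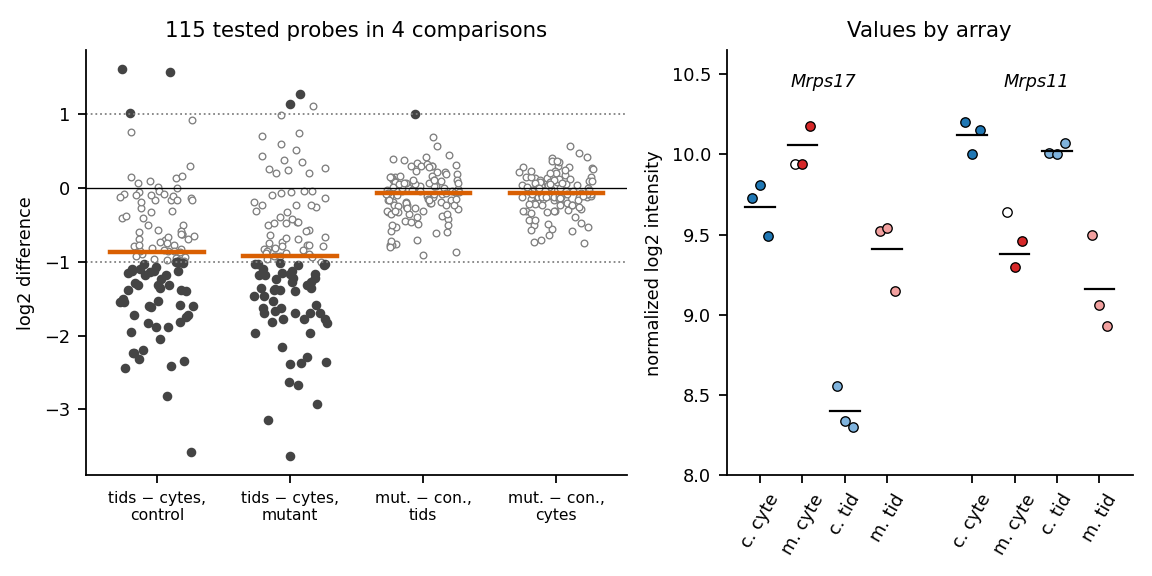
Left, log2 differences of the 115 tested probes in 4 comparisons (filled, called; white, not called; orange bars, medians; dotted lines, a fold of 2). Right, log2 intensity of Mrps17 and of the first Mrps11 probe on all 12 arrays (bars, means; white points, the censored array). The medians are -0.87 and -0.93 between cell types and -0.07 in each genotype comparison, where that of spermatocytes ranged from -0.29 to 0.18 when 1 array was left out and that of spermatids from -0.11 to -0.03. Mrps17 is called in spermatids and no member in spermatocytes.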

How the data were processed

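Illumina bead arrays of 12 sorted samples were used. The authors deposited a linear signal intensity per probe, summarized but not normalized in GenomeStudio 2011.1 per the labels, with a detection p-value, and log2 values that the authors normalized with limma 3.12.1. From the intensities, background was corrected by normexp (offset 16, negative controls inferred from the detection p-values) and arrays were quantile normalized (limma 3.58.1, R 4.3.3). These values departed from the deposited log2 ones by at most 0.0458. A linear model with array weights was fitted to the 4 groups over all 28751 probes, so a fitted difference can depart from the difference of plain means. Calls needed a fold of 2 and an adjusted p under 0.05. At least N-fold bounds set an undetected probe, on each array, to the higher of its own value and the lowest detected value. The p-values measure the spread between these arrays.

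Gene names came from the platform annotation: 34885 probes had 1 symbol, 18 several and 10378 none. Members and lists were chosen with earlier results of these data known. Named members were those called between genotypes or, with none, the lowest 3 adjusted p-values; the 10 largest rises and falls between cell types by gene; the 3 largest other changes in mutants; genes with discordant probes; the S18 paralogs and the stalk. Mrpl2, Mrpl14, Mrpl30, Mrpl33, Mrpl43, Mrpl46, Mrps22 and the divergent neighbors were named outside this rule, after their values were seen. From each list, the 2 largest called genes each way were named. Replicate numbers pair cell types of 1 mouse by the labels. Deviations of these pairs correlated at 0.2272, 0.0009411 and 0.1833 in controls and at -0.04297 and 0.1437 in mutants. Some arrays of different mice with the same number correlated more. Control and mutant spermatocytes gave 0.5389 for number 2 and 0.4215 for number 3, and spermatids gave 0.3138 for number 1. The 2 mutant spermatocyte arrays have mirrored deviations, and the cause of these correlations was not tested. Promoters came from RefSeq. The steps were tested on simulated data. Alternatives were other background, scaling, filters, weights, blocks, call rules and leaving out each array. Number of arrays limits the precision. Slides are not named in the file headers.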

Additional observations from a re-analysis of the deposited data

How the results depend on the processing

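Between cell types the members' direction held under every alternative run, while counts moved with the background and the call rule. Against 52 called in controls and 55 in mutants, no background correction gave 31 and 35, testing the fold of 2 itself gave 21 and 15, and a fold of 1.5 gave 83 in controls. Leaving out 1 array at a time gave 40 to 61 in controls and 38 to 69 in mutants. Median scaling moved the members' median in controls from -0.87 to -1.19, with the median of all probes at -0.10 in place of -0.05.

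Between spermatid genotypes the count of 1 became 0 without background correction, with an offset of 50, with the replicate block by number (Mrps17 at 0.97), with the replicate block by mouse and when the fold of 2 was tested, and 5 at a fold of 1.5. Leaving out 1 array gave 0 to 3: 3 without mutant spermatid 1 (Mrps7, Mrps11 and Mrpl44), 2 without mutant spermatid 3 (Mrps16 and Mrps17) and 0 without mutant spermatid 2 or control spermatid 2 or 3. In these fits the adjusted p of Mrps17 stayed between 0.00157 and 0.0248, except at 1 when the fold itself was tested. Spermatocytes gave 1 with median scaling (Mrps11, -1.20) and 1 with the censored array (Mrpl14, -1.17), and 0 to 1 over arrays left out, with 1 without mutant spermatocyte 2 (another Mrps25 probe than the one above, -1.17). There median scaling shifted the median of all probes to -0.16 and the share of calls that were higher from 64.4% to 28.3%. The cause of these changes was not tested. The block by number left the difference of genotype effects at 0, and neither block moved a cell type count by over 1.5 times. Slide as a block was not run because slides are not given. Low signal near background limits the dim probes.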
